A study of Mus musculus with 10 samples.

Results

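The collagen chain genes are the genes whose symbol reads Col, a number, a and a number, and 42 of the 19505 genes named on the array met this rule. They comprise 11 fibrillar, 8 fibril-associated, 6 basement membrane, 6 beaded filament, 3 network-forming short chain, 4 transmembrane and 2 multiplexin collagen genes and 2 others (Col26a1 and Col28a1). Each was represented by a single probe set. Transcripts were measured on 10 single-colour Affymetrix arrays. The RNA came from spleens and lymph nodes of immunocompromised mice, 6 months after they were given CD4+ T cells transduced with GFP or with oncogenic Vav1. The groups were GFP spleen (WT + GFP, 2 arrays), oncogenic Vav1 spleen (WT + Oncogenic Vav1, 4 arrays), GFP lymph node (2 arrays) and oncogenic Vav1 lymph node (2 arrays). All samples carry the strain label C57BL/10, and the labels do not say whether it is that of the hosts or of the transferred cells, nor which Vav1 mutation or which kind of host was used. The descriptions name 7 animals, 3 of which gave both tissues, so arrays of a group come from different animals. By its title the study concerns VAV1 mutations of cancer and T cell lymphoma, and the comparison of constructs asks which transcripts differ when the given cells carry oncogenic Vav1.

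Collagens are secreted or membrane-bound proteins whose chains wind around each other in a helix built from glycine-rich repeats. Fibrillar collagens form the tensile fibres of connective tissue, fibril-associated collagens decorate those fibres, type IV collagens form the sheet of the basement membrane, and type VI collagens form beaded filaments around cells. In lymphoid organs they are made mainly by fibroblasts, reticular stromal cells, vessel cells and the cells of the capsule and surrounding fat, not by T cells, and the reticular network on which lymphocytes move has a core rich in type I and type III collagen. The cell type label is CD4+ T cells, but genes of stroma, B cells and myeloid cells were well above background on the arrays, as given below. The 4 T cell markers measured averaged 8.14 to 10.1 on the arrays. In such mixed samples fewer cells of a type and less RNA per cell cannot be told apart.

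The promoters of 4 chain genes are shown because their transcripts carried the largest differences described below: Col3a1 and Col6a2, whose response to the construct differed between the tissues, Col1a2, the gene of the second type I chain, and Col6a4, which was lower with oncogenic Vav1 in both tissues. The sequences are the 250 bases before the transcription start in RefSeq (GRCm38). They lie at chr1:45311288-45311537 on the plus strand for Col3a1 and chr6:4505368-4505617 on the plus strand for Col1a2. That of Col6a2 lies at chr10:76623405-76623654 on the minus strand and that of Col6a4 at chr9:106096692-106096941 on the minus strand. Capitals mark matches to the TATA box (TATAAA), the GC box (GGGCGG) or the CCAAT box (CCAAT), each read on both strands, and matches to different motifs did not overlap here.
Col3a1: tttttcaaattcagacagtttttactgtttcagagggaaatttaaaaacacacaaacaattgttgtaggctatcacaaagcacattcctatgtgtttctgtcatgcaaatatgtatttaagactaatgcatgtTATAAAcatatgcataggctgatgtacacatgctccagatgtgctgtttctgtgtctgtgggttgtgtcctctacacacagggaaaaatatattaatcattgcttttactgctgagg
Col1a2: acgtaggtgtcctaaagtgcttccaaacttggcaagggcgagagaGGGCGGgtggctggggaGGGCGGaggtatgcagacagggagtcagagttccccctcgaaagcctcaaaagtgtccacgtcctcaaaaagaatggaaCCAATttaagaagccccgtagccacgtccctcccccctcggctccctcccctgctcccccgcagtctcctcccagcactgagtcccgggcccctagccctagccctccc
Col6a2: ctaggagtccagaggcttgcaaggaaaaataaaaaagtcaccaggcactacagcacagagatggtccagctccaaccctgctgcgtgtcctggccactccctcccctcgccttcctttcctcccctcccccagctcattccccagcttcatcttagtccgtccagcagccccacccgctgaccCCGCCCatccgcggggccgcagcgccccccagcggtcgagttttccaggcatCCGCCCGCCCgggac
Col6a4: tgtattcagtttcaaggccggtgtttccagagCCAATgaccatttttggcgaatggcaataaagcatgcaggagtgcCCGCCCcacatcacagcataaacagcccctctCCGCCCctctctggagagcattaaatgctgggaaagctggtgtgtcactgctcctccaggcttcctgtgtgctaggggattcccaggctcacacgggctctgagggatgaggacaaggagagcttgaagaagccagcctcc
The Col3a1 window holds a TATA box match that starts 117 bases before the transcription start and no match to the other motifs. The Col1a2 window holds a CCAAT box match 109 bases and GC box matches 205 and 188 bases before the start. The Col6a2 window, at the downstream of 2 listed starts, holds GC box matches that begin 67, 15 and 11 bases before the start, all on the reverse strand and the last 2 overlapping, and that of Col6a4 a CCAAT box match 218 bases and GC box matches 173 and 141 bases before it. Of the 37 promoter windows listed for 34 of the 42 genes, 21 held a GC box, against 32.7% of all 32851 windows, 12 held a CCAAT box, against 33.8%, and 5 a TATA box, against 12.4%. A match of letters is a description and not a binding site. Col4a1 and Col4a2, which encode the common chains of the basement membrane, start 21 bases apart on opposite strands.

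All values are log2 values after RMA, a standard summary of Affymetrix probes, so a difference of 1 is a doubling of the signal. A change is given as a log2 difference from limma with its standard error (SE), and a gene was called changed at an adjusted p under 0.05 over all genes tested (Benjamini-Hochberg). Of the 42 genes, 35 lay above the 40th percentile of their array on at least 2 arrays and were tested. The 40th percentile lay between 5.64 and 5.84, and a group mean below it is called near background. The 7 that were not tested, Col4a3, Col4a5, Col5a1, Col6a5, Col10a1, Col17a1 and Col24a1, stayed below it on every array. The array medians lay between 6.27 and 6.41, and no pair of arrays held identical values.

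**Figure D1:**
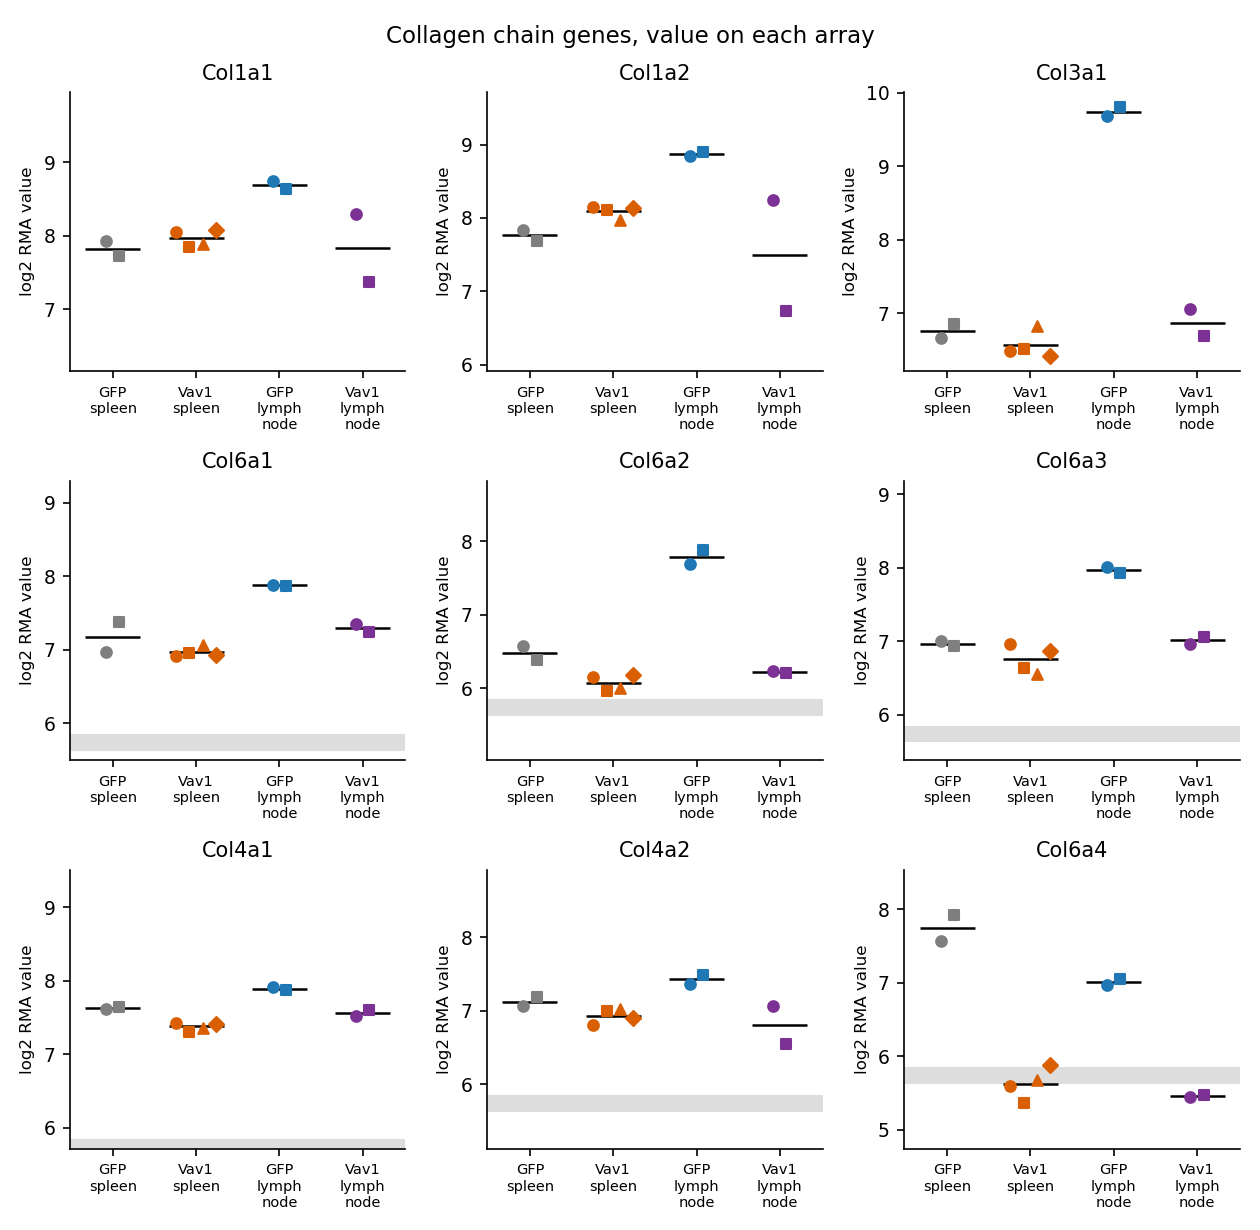
Log2 RMA value (vertical axis, the same span in each panel) of 9 collagen chain genes on each of the 10 arrays, by group. Points are arrays, with a different symbol for each replicate number, black lines are group means, and the grey band is the range of the 40th percentile of the arrays. The 2 GFP lymph node arrays stand highest for Col3a1 (9.68 and 9.80) and for Col6a1, Col6a2 and Col6a3, while the 4 GFP arrays of both tissues stand above the 6 oncogenic Vav1 arrays for Col6a4.

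Among the fibrillar collagens, Col3a1, the sole chain of type III collagen, was high in the GFP lymph node alone and lower there with oncogenic Vav1. It measured 9.68 and 9.80 on the GFP lymph node arrays and 7.05 and 6.69 on the oncogenic Vav1 lymph node arrays. In the spleen it measured 6.66 and 6.85 with GFP and 6.48, 6.51, 6.83 and 6.42 with oncogenic Vav1. The lymph node groups were thus far apart, while the spleen groups overlapped. Col3a1 fell by 2.87 in the lymph node (SE 0.18, adjusted p = 8.4e-06), which is 7.31-fold, and differed by -0.20 in the spleen (SE 0.16, adjusted p = 0.37). With either lymph node array of either construct left out, the lymph node change stayed between -3.05 and -2.69 and passed.

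The 2 chains of type I collagen, the main protein of connective tissue fibres, were also lower in the oncogenic Vav1 lymph node, with a wide spread there. Col1a1 measured 8.74 and 8.63 in the GFP lymph node and 8.29 and 7.37 in the oncogenic Vav1 lymph node, against 7.92 and 7.72 in the spleen with GFP and 7.85 to 8.07 with oncogenic Vav1. Col1a2 measured 8.84 and 8.90 in the GFP lymph node and 8.25 and 6.73 in the oncogenic Vav1 lymph node, against 7.84 and 7.69 in the spleen with GFP and 7.97 to 8.15 with oncogenic Vav1. For both genes the second oncogenic Vav1 lymph node array was the lowest of all 10, while the first lay above every spleen array. Col1a1 fell by 0.85 in the lymph node (SE 0.25, adjusted p = 0.036) and Col1a2 by 1.38 (SE 0.36, adjusted p = 0.023). On leaving out each array, Col1a1 passed only without oncogenic Vav1 lymph node replicate 1 (-1.31) and was -0.39 without replicate 2, while its adjusted p was between 0.051 and 0.056 without a spleen array. Col1a2 was -2.13 and -0.62 without these replicates, which both passed, and did not pass without GFP lymph node replicate 1 or 2 (adjusted p = 0.11 and 0.12). In the spleen, Col1a1 differed by 0.14 (SE 0.21, adjusted p = 0.65) and Col1a2 by 0.33 (SE 0.31, adjusted p = 0.45), with 95% intervals from -0.33 to 0.61 and from -0.36 to 1.01.

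The other fibrillar genes tested did not pass in the lymph node, where they ranged from -0.23 for Col5a2 to 0.23 for Col11a1. In the spleen, where 9.77% of all genes tested were called lower and 26.8% in either direction, 4 of the 9 fibrillar genes fell: Col27a1 by 0.72 (SE 0.17, adjusted p = 0.014), Col5a3, a minor partner of type I fibres, by 0.62 (SE 0.18, adjusted p = 0.026), the cartilage collagen gene Col2a1 by 0.59 (SE 0.18, adjusted p = 0.032) and Col11a2 by 0.44 (SE 0.14, adjusted p = 0.043). Col27a1 measured 6.43 and 6.70 with GFP and 5.71 to 5.94 with oncogenic Vav1. Col2a1 was near background in the oncogenic Vav1 spleen, at 5.05 to 5.58, and exceeded the 40th percentile on 2 arrays, GFP spleen replicate 2 and GFP lymph node replicate 2.

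Of the 5 beaded filament genes tested, 4 fell in the lymph node, where 10.8% of all genes tested were called lower and 18.7% in either direction. Col6a1, Col6a2 and Col6a3, which encode the chains of the widespread form of type VI collagen, fell there, as did Col6a4. Col6a2 measured 7.69 and 7.89 in the GFP lymph node, 6.23 and 6.21 in the oncogenic Vav1 lymph node, 6.58 and 6.38 in the GFP spleen and 5.96 to 6.18 in the oncogenic Vav1 spleen. Col6a3 measured 8.01 and 7.93 in the GFP lymph node and 6.97 and 7.06 in the oncogenic Vav1 lymph node, against 6.56 to 7.00 over the 6 spleen arrays. Col6a1 measured 7.88 and 7.87 in the GFP lymph node and 7.35 and 7.24 in the oncogenic Vav1 lymph node, against 6.92 to 7.38 in the spleen. On each of these genes the GFP lymph node arrays lay above all others, and the oncogenic Vav1 lymph node arrays lay within or close to the range of the spleen. In the lymph node Col6a2 fell by 1.57 (SE 0.15, adjusted p = 0.00011), Col6a3 fell by 0.95 (SE 0.16, adjusted p = 0.0027) and Col6a1 fell by 0.58 (SE 0.16, adjusted p = 0.027). Col6a1 did not pass without either GFP lymph node array (adjusted p = 0.13 for each) or without the second oncogenic Vav1 lymph node array, replicate 2 (adjusted p = 0.068). In the spleen Col6a2 fell by 0.40 (SE 0.13, adjusted p = 0.048), while Col6a1 (-0.21, SE 0.14, adjusted p = 0.27) and Col6a3 (-0.21, SE 0.14, adjusted p = 0.29) did not pass.

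Col6a4, which encodes a further type VI chain, was lower with oncogenic Vav1 in both tissues. It measured 7.57 and 7.92 in the GFP spleen, 5.59, 5.36, 5.68 and 5.88 in the oncogenic Vav1 spleen, 6.97 and 7.05 in the GFP lymph node and 5.45 and 5.47 in the oncogenic Vav1 lymph node. All 4 GFP arrays thus lay above all 6 oncogenic Vav1 arrays, whose group means were near background, so the size of the fall depends on the background level. Col6a4 fell by 2.11 in the spleen (SE 0.17, adjusted p = 7.9e-05), which is 4.32-fold, and fell by 1.55 in the lymph node (SE 0.19, adjusted p = 0.00041), which is 2.93-fold. The difference between these changes, lymph node minus spleen, did not pass (0.56, SE 0.26, adjusted p = 0.21), with a 95% interval from -0.02 to 1.14. In every alternative run, Col6a4 passed in both tissues, with adjusted p of at most 0.0057 in the spleen and 0.03 in the lymph node. Of the similar chain genes, Col6a5 was not tested and Col6a6 differed by -0.34 in the spleen (adjusted p = 0.22) and -0.30 in the lymph node (adjusted p = 0.42).

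Of the 4 basement membrane genes tested, 1 fell in each tissue, where 9.77% (spleen) and 10.8% (lymph node) of all genes were called lower. Col4a1 measured 7.62 and 7.65 in the GFP spleen, 7.31 to 7.43 in the oncogenic Vav1 spleen, 7.92 and 7.87 in the GFP lymph node and 7.52 and 7.61 in the oncogenic Vav1 lymph node. Its changes of -0.26 in the spleen (SE 0.11, adjusted p = 0.11) and -0.33 in the lymph node (SE 0.13, adjusted p = 0.10) did not pass, although the GFP arrays lay above the oncogenic Vav1 arrays in each tissue. Col4a2 measured 7.37 and 7.49 in the GFP lymph node and 7.06 and 6.55 in the oncogenic Vav1 lymph node, a fall of 0.63 (SE 0.18, adjusted p = 0.033). Leaving out oncogenic Vav1 lymph node replicate 2 gave -0.38 for Col4a2 (adjusted p = 0.16). It also missed the threshold without either GFP lymph node array (adjusted p = 0.11 and 0.18) and without oncogenic Vav1 spleen replicate 2 or 4 (adjusted p = 0.052 for each). Col4a6, from the minor chains of some epithelia, fell in the spleen by 0.51 (SE 0.15, adjusted p = 0.036), and Col4a4, a chain of the kidney filter, passed in neither tissue (-0.21 and -0.07).

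Counted over all classes, 8 of 35 collagen genes fell and none rose in the lymph node, against the 10.8% of all 13393 genes tested. The median change was -0.06, close to the -0.02 of all genes tested. The 8 were Col1a1, Col1a2 and Col3a1 of the fibrillar class, Col6a1, Col6a2, Col6a3 and Col6a4 of the beaded filament class, and Col4a2. Leaving out a lymph node array leaves a single array in its group, so the calls of single genes rest on few arrays. The median change was then between -0.12 and -0.05. With the lymph node arrays alone, where 3.23% of all genes tested were called, 3 genes passed, Col3a1, Col6a2 and Col6a4.

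**Figure D2:**
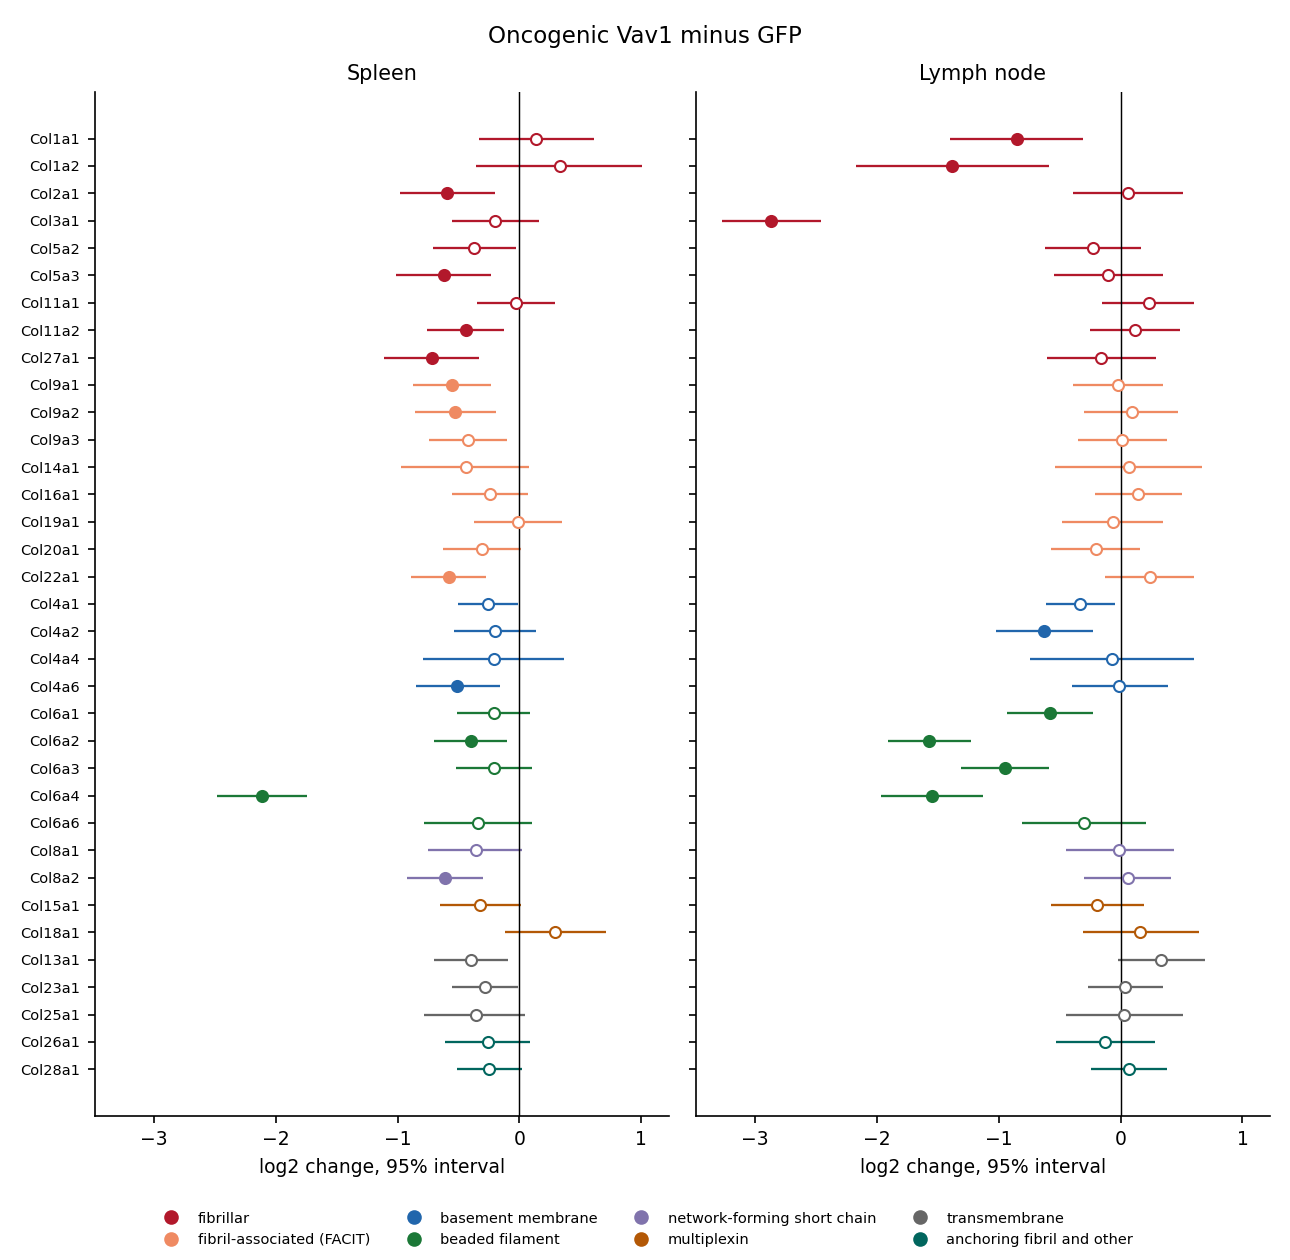
Log2 change with oncogenic Vav1 against GFP (horizontal axis, the same scale in both panels) for the 35 collagen genes tested, in the spleen and in the lymph node. Points are limma estimates, lines their 95% intervals without adjustment for the number of genes, colours the collagen classes, and filled points passed the adjusted threshold. In the spleen most points lie slightly below 0 with Col6a4 (-2.11) apart, while in the lymph node most points lie near 0 with Col3a1 (-2.87), Col6a2 (-1.57), Col6a4 (-1.55) and Col1a2 (-1.38) apart.

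In the spleen the pattern was broad and shallow. There 11 of 35 collagen genes fell and none rose, against 9.77% of all genes called lower and 17.1% called higher. The median change was -0.34 against 0.00 over all genes tested, and 32 of the 35 estimates were below 0. Apart from Col6a4, the falls ranged from 0.40 for Col6a2 to 0.72 for Col27a1. Among the fibril-associated genes, 3 of 8 fell, Col22a1 by 0.58 (SE 0.14, adjusted p = 0.014), Col9a1 by 0.55 (SE 0.14, adjusted p = 0.019) and Col9a2 by 0.53 (SE 0.15, adjusted p = 0.027), the last 2 from cartilage collagen IX. Col22a1 measured 8.24 and 8.36 with GFP and 7.63 to 7.93 with oncogenic Vav1, and Col9a1 6.48 and 6.82 against 6.00 to 6.23. Of the network-forming genes, Col8a2, known from the cornea and from vessels, fell by 0.61 (SE 0.14, adjusted p = 0.010), from 8.56 and 8.41 to between 7.63 and 8.04. None of the 3 transmembrane, 2 multiplexin and 2 other genes tested passed, among them Col13a1 (-0.40, adjusted p = 0.058), Col15a1 of vessel basement membranes (-0.32, adjusted p = 0.13) and Col18a1, the precursor of endostatin (0.29, adjusted p = 0.25).

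The arrays of the GFP spleen also had higher control values, in the same direction as this broad pattern. The median of the 5222 intronic control probe sets, whose probes lie in introns, was 5.87 and 5.69 on the GFP spleen arrays. It lay between 5.43 and 5.55 on those with oncogenic Vav1, and between 5.27 and 5.57 for lymph node. The median difference of these controls with oncogenic Vav1 was -0.31 in the spleen and 0.01 in the lymph node. The fibril-associated genes, whose mean was 7.33 and 7.34 on the GFP spleen arrays, averaged between 6.85 and 7.04 with oncogenic Vav1 and between 7.08 and 7.13 on the lymph node arrays. The part of this background in the falls was not tested beyond the covariate. With the control value of each array as a covariate, 2 collagen genes passed in the spleen, Col6a4 and Col22a1. The median collagen change was then -0.45, and 6.84% of all genes tested were called. Leaving out a GFP spleen array leaves a single array in that group, so the calls of single genes rest on few arrays. The median collagen change was -0.35 without GFP spleen replicate 1 and -0.30 without replicate 2. Without oncogenic Vav1 spleen replicate 1 or 2 the count was 5, with 17.4% and 17.5% of all genes tested called. Without either oncogenic Vav1 lymph node array the median collagen change in the spleen was -0.34.

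**Figure D3:**
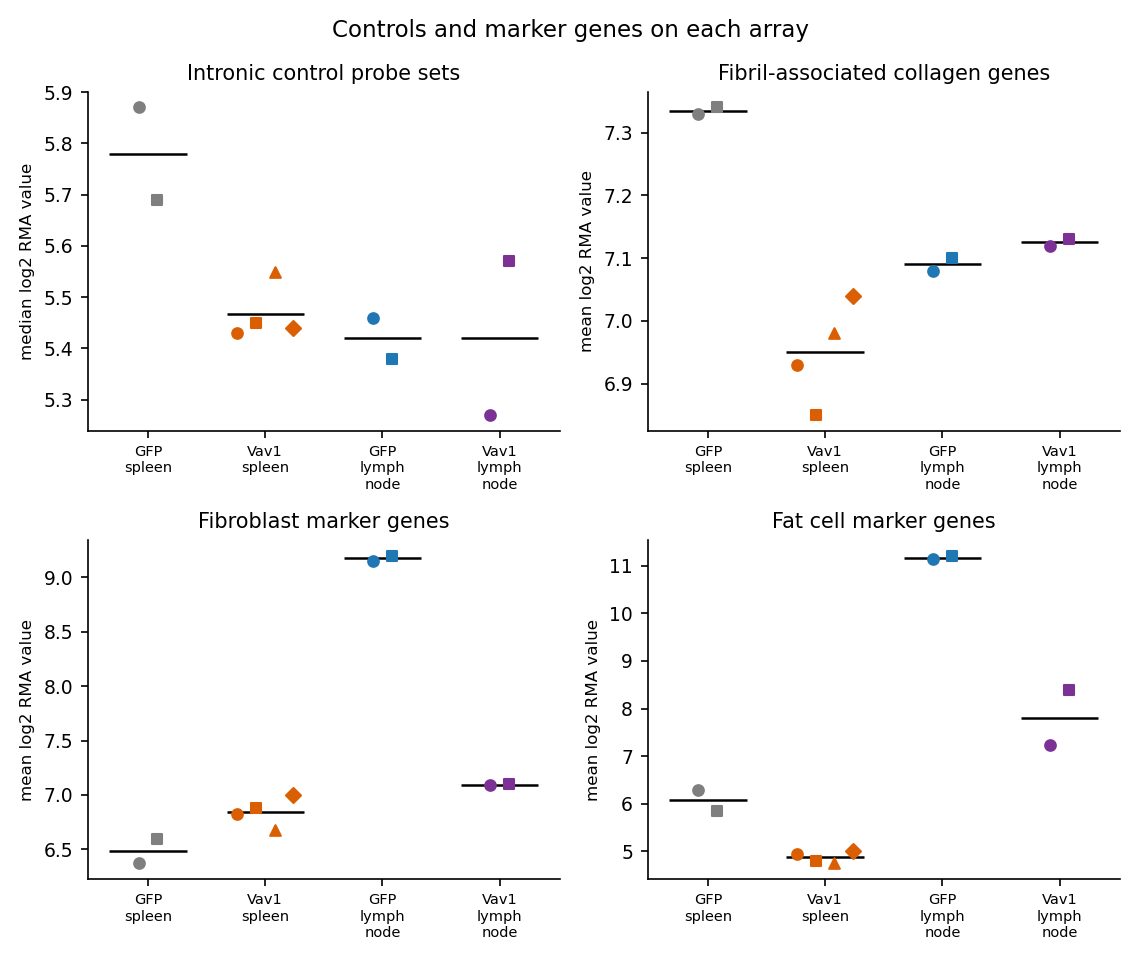
Median log2 RMA value of the intronic control probe sets and mean log2 RMA value of the fibril-associated collagen genes, the fibroblast markers and the fat cell markers (vertical axes, with a scale of their own) on each array, by group. Points are arrays, with a different symbol for each replicate number, and black lines are group means. Controls and fibril-associated genes are highest in the GFP spleen (controls at 5.87 and 5.69), and fibroblast (9.15 and 9.20) and fat cell markers (11.1 and 11.2) are highest in the GFP lymph node.

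Between the tissues of GFP mice, 11.6% of all genes tested were called higher in the lymph node and 4.41% lower (16.0% in either direction). Near these shares, 5 of 35 collagen genes were higher in the lymph node and 2 lower. Col3a1 was higher there by 2.98 (SE 0.18, adjusted p = 4.4e-06), which is 7.88-fold, Col6a2 by 1.31 (SE 0.16, adjusted p = 0.00031), Col6a3 by 1.01 (SE 0.17, adjusted p = 0.0023), Col1a1 by 0.86 (SE 0.25, adjusted p = 0.042) and Col6a1 by 0.69 (SE 0.16, adjusted p = 0.015). Col1a2 was 1.11 higher (SE 0.37) and did not pass (adjusted p = 0.068). Col6a4 was lower in the lymph node, with a difference of -0.74 (SE 0.20, adjusted p = 0.027) as was Col22a1 (-0.60, SE 0.17, adjusted p = 0.036). The 35 genes had a median difference of -0.16. The intronic controls differed by -0.34 in this comparison, and with them as a covariate Col1a1 (0.23, adjusted p = 0.56), Col6a1 (0.59, adjusted p = 0.085) and Col6a4 (-0.65, adjusted p = 0.13) no longer passed. This comparison shares its GFP lymph node arrays with that of the constructs, so the same 2 arrays enter both. Leaving out a GFP array leaves a single array in its group, so the calls of single genes rest on few arrays. The median difference of the 35 genes was then between -0.20 and -0.07.

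Between the tissues of oncogenic Vav1 mice no collagen gene passed by limma, and 3 of 35 had an unadjusted p under 0.05. Over all genes tested 0.0373% were called. Without oncogenic Vav1 lymph node replicate 1, a single array is left in that group. It lay below the 4 oncogenic Vav1 spleen arrays for Col1a1 (7.37 against 7.85 to 8.07) and Col1a2 (6.73 against 7.97 to 8.15). Col3a1 differed by 0.32 (SE 0.16, adjusted p = 0.53) with a 95% interval from -0.03 to 0.68, and Col6a2 by 0.13 (SE 0.14, adjusted p = 0.71) with an interval from -0.18 to 0.44. Col1a2 differed by -0.61 (SE 0.32, adjusted p = 0.54), with an interval from -1.32 to 0.11. Within the animal that gave GFP spleen replicate 1 and GFP lymph node replicate 2, Col3a1 was 3.15 higher in the lymph node. Within the 2 oncogenic Vav1 animals with both tissues it differed by 0.54 and -0.13, and Col1a2 by 0.14 and -1.24. The animal with the lower Col1a2 is that of oncogenic Vav1 lymph node replicate 2.

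**Figure D4:**
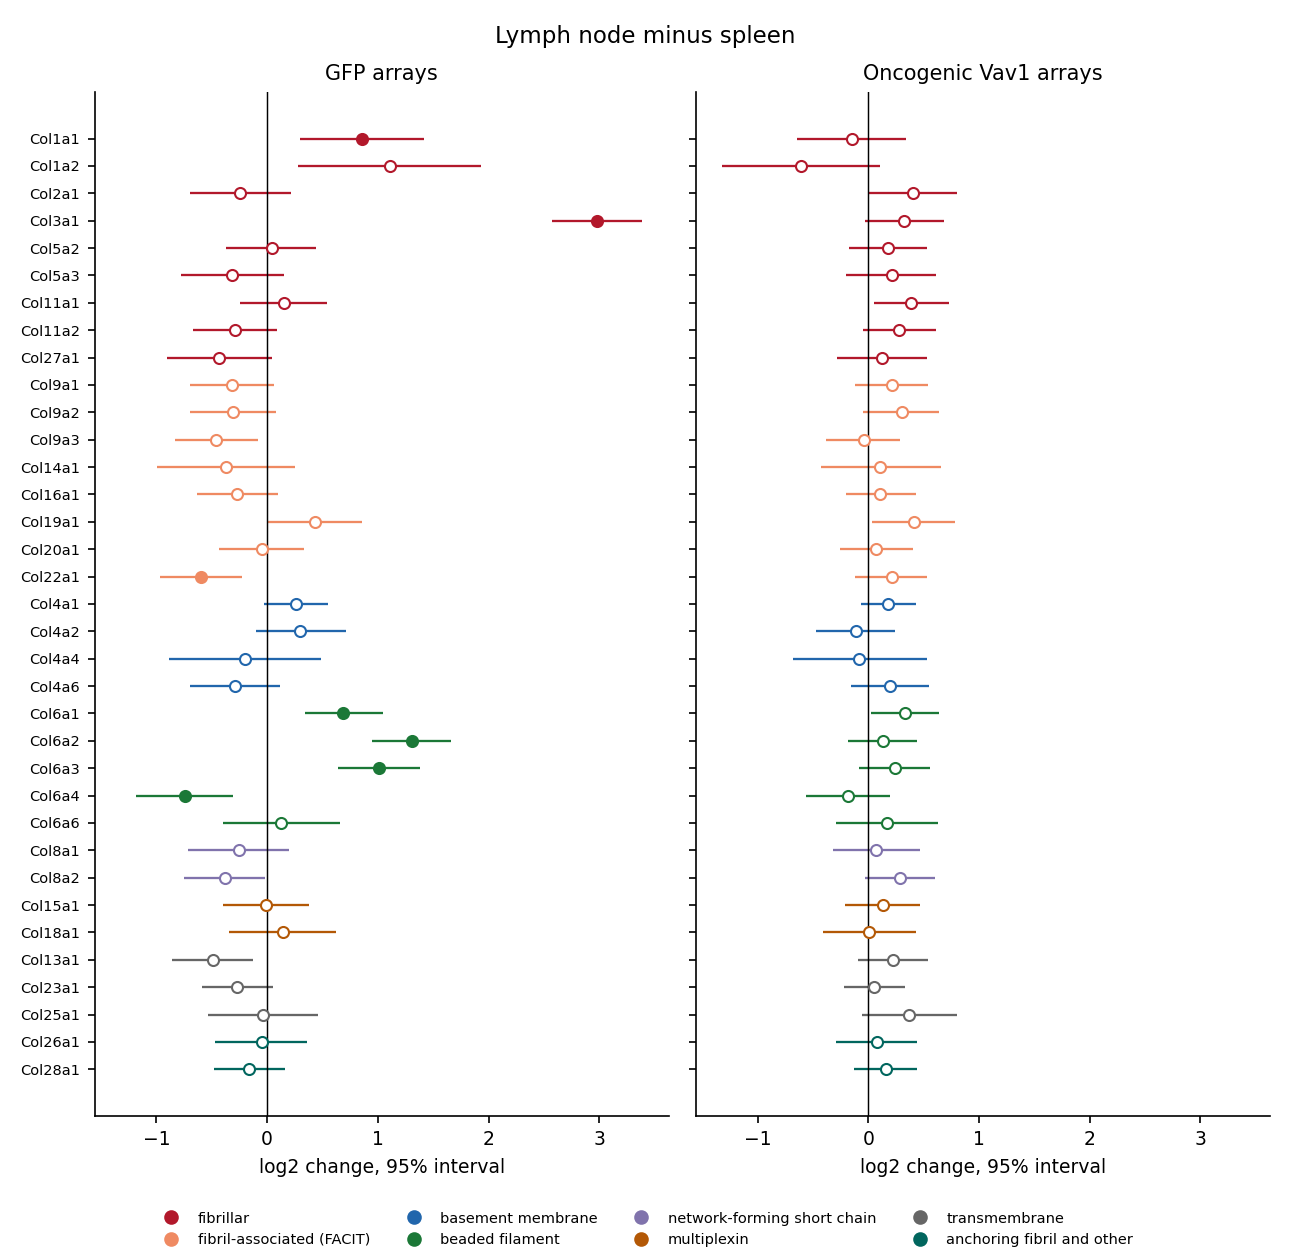
Log2 difference of lymph node and spleen (horizontal axis, positive where the lymph node is higher, the same scale in both panels) for the 35 collagen genes tested, on the GFP and on the oncogenic Vav1 arrays. Points are limma estimates, lines their 95% intervals without adjustment for the number of genes, colours the collagen classes, and filled points passed the adjusted threshold. Col3a1 (2.98), Col6a2 (1.31) and Col6a3 (1.01) stand to the right on the GFP arrays, and no point is filled on the oncogenic Vav1 arrays.

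The construct effect itself differed between the tissues for 2 collagen genes, tested as an interaction. The lymph node effect minus the spleen effect was -2.65 for Col3a1 (SE 0.24, adjusted p = 0.00022) and -1.18 for Col6a2 (SE 0.21, adjusted p = 0.0077). Col1a2 (-1.71, SE 0.49, adjusted p = 0.061), Col6a3 (-0.77, SE 0.22, adjusted p = 0.062) and Col1a1 (-1.01, SE 0.34, adjusted p = 0.095) did not pass. Col22a1 differed the other way (0.81, SE 0.22, adjusted p = 0.053) and did not pass either. In either direction 8.04% of all genes tested were called, 7.11% as lower and 0.933% as higher. Leaving out an oncogenic Vav1 lymph node array leaves a single array in that group. The median collagen difference was then 0.26 without replicate 1 and 0.32 without replicate 2, against 0.31. Without oncogenic Vav1 spleen replicate 4 the count of collagen genes was 4, where 5.97% of all genes tested were called.

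Across the 10 arrays, which share animals and groups, the chains fell into sets that can be described by their Pearson correlation. Col3a1 followed Col6a2 (r = 0.96), Col6a3 (r = 0.94) and Col6a1 (r = 0.93). Col1a1 and Col1a2, whose chains join in 1 protein, followed each other (r = 0.95) more closely than they followed Col3a1 (r = 0.81 for Col1a1 and 0.69 for Col1a2). The head-to-head genes Col4a1 and Col4a2 had r = 0.63, while Col4a1 had r from 0.85 to 0.93 with Col3a1, Col6a1, Col6a2 and Col6a3. Col6a4 had r between 0.21 and 0.66 with those 8 genes. The non-collagen genes most like Col3a1 over the 10 arrays were Gdf10, Pdk2, Cd209f, Ccl11 and Gatd3a (r from 0.989 to 0.998), and those most like Col6a4 were Fcer2a (CD23, an IgE receptor found on B cells), Zmym2, Cmah, Scaper and Rnf144a (r from 0.980 to 0.987). Fcer2a, for instance, averaged 9.65 and 7.87 in the GFP and oncogenic Vav1 spleen and 9.20 and 7.76 in the lymph node.

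Among the enzymes and chaperones that build and crosslink collagen, rises prevailed in the spleen. Of 24 such genes tested there, 8 rose and 1 fell (median 0.23), against the 17.1% of all genes called higher. They included the crosslinking oxidase Loxl3 (1.06, SE 0.14, adjusted p = 0.00081), the collagen chaperone Serpinh1 (1.15, SE 0.19, adjusted p = 0.0021), and Crtap (0.86, SE 0.14, adjusted p = 0.0026) and Ppib (0.65, SE 0.12, adjusted p = 0.0045) of the prolyl 3-hydroxylation complex. In the lymph node 5 fell and none rose (median -0.04), against 10.8% of all genes called lower. Among the falls were the oxidases Lox (-2.04, SE 0.25, adjusted p = 0.00043) and Loxl1 (-1.29, SE 0.21, adjusted p = 0.0021), Crtap (-1.11, SE 0.17, adjusted p = 0.0013) and the procollagen protease enhancer Pcolce2 (-1.41, SE 0.29, adjusted p = 0.007). Lox and Loxl1 exceeded the level needed for testing on the GFP lymph node arrays alone. Their falls were thus favoured by the rule for testing, so the count of 5 compares poorly with that share. The same limit bears on both genes in the tissue difference that follows. The construct effect differed between the tissues for 8 of the 24, all with a lower effect in the lymph node (7.11% of all genes), among them Crtap (-1.98, SE 0.23, adjusted p = 0.00073), Serpinh1 (-1.89, SE 0.29, adjusted p = 0.0033) and Lox (-1.83, SE 0.35, adjusted p = 0.010).

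Genes of collagen breakdown and of its inhibitors, counted as 1 list, went in both directions. In the spleen 6 of 13 rose and none fell (median 0.74), against 17.1% of all genes called higher. Among them were the collagenase of neutrophils Mmp8 (1.60, SE 0.22, adjusted p = 0.001), the gelatinase Mmp9 (1.04, SE 0.16, adjusted p = 0.0017), the stromelysin Mmp3 (1.74, SE 0.29, adjusted p = 0.0025) and the membrane collagenase Mmp14 (2.00, SE 0.35, adjusted p = 0.003). The rises also included the protease inhibitor Timp2 (0.95). The mean of 4 myeloid markers was 9.09 and 9.26 in the GFP spleen and 10.71 to 10.96 in the oncogenic Vav1 spleen, and their part in these rises was not tested. In the lymph node, where 10.8% of all genes were called lower and 7.87% higher, 5 fell and Mmp8 rose (1.69, SE 0.25, adjusted p = 0.0013). The falls included the protease inhibitors Timp4 (-2.75, SE 0.32, adjusted p = 0.0003) and Timp2 (-1.20, SE 0.21, adjusted p = 0.0028) and the lysosomal collagenase Ctsk (-1.60, SE 0.24, adjusted p = 0.0013). Timp4 exceeded the level needed for testing on the GFP lymph node arrays alone, and Mmp8 on oncogenic Vav1 arrays alone. The rule for testing thus favoured these changes, the rise of Mmp8 in the spleen included. Among the 8 receptor genes tested, Ddr2, a kinase that binds fibrillar collagen, rose in the spleen (1.14, SE 0.20, adjusted p = 0.0031) and fell in the lymph node (-0.94, SE 0.23, adjusted p = 0.017), and this difference passed (-2.10, SE 0.31, adjusted p = 0.0027). In total 4 of the 8 receptor genes rose in the spleen (17.1% of all genes), among them Itgb1 and Lair1 (0.69 and 1.35). In the lymph node 2 rose (7.87% of all genes) and 2 fell (10.8%). The platelet collagen receptor Gp6 was among the rises there (1.92, SE 0.38, adjusted p = 0.0058), in the arrays in which 3 of 4 platelet markers rose.

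Proteins that share the matrix with collagen mostly fell in the lymph node, where 9 of 15 fell and 1 rose (median -1.15, against -0.02 over all genes tested, of which 10.8% were called lower), with the fibroblast products Postn (-2.62, SE 0.26, adjusted p = 0.00011), Lum (-2.95, SE 0.17) and Fn1 (-1.38, SE 0.15, adjusted p = 2e-04) among the falls and Thbs1, which platelets store, as the rise (2.04, SE 0.26). In the spleen 5 rose and 2 fell (median 0.06), against 17.1% and 9.77% of all genes. The small proteoglycan Dcn (1.63, SE 0.35, adjusted p = 0.0078) and the collagen-binding glycoprotein Sparc (1.35, SE 0.15, adjusted p = 0.00046) rose there. Thbs1 rose in the spleen as well (1.07, SE 0.23, adjusted p = 0.0073). Dcn measured 8.88 and 9.71 in the GFP spleen and 10.2 to 11.3 in the oncogenic Vav1 spleen. Of the 13 laminin, nidogen and proteoglycan genes of the basement membrane, 4 fell in the lymph node (10.8% of all genes). These were Lamb1 (-1.64, SE 0.29), Lama4 (-1.20, SE 0.26), Lamc1 (-1.16, SE 0.29) and Nid1 (-0.73, SE 0.23). In the spleen 1 rose (17.1% of all genes), Lamb1 (0.77, SE 0.25, adjusted p = 0.045). Lum and Lamb1 exceeded the level needed for testing on the GFP lymph node arrays alone. The rule for testing thus favoured their falls in the lymph node counts.

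Fibroblast and fat cell markers fell in the lymph node, and in the spleen no fibroblast marker fell. Of all genes tested, 10.8% were called lower in the lymph node, and 9.77% lower and 17.1% higher in the spleen. All 6 fibroblast markers tested fell in the lymph node (median -2.30) and 2 rose in the spleen (median 0.31), and 2 of the 6, Dcn and Lum, are also counted above. Their mean was 9.15 and 9.20 in the GFP lymph node, 7.09 and 7.10 in the oncogenic Vav1 lymph node and 6.37 to 7.00 in the spleen. All 7 fat cell markers fell in the lymph node (median -3.00), with means of 11.1 and 11.2 on the GFP arrays and 7.23 and 8.38 on the oncogenic Vav1 arrays, against 4.75 to 6.28 in the spleen. Near background were 3 of the 6 fibroblast markers in each group other than the GFP lymph node, which had none, and 1 of the 7 fat cell markers in the oncogenic Vav1 lymph node. Ucp1, the uncoupling protein of brown fat, measured 10.3 and 10.5 in the GFP lymph node and 3.63 to 3.99 on all other arrays. Ucp1 and the fibroblast markers Pi16, Clec3b and Lum exceeded the level needed for testing on the GFP lymph node arrays alone. The rule for testing thus favoured their falls, so the counts of 6 and 7 are not independent of it. The fibroblast markers Dpt, Gsn and Dcn exceeded that level on all arrays and fell as well (-2.4, -2.2 and -1.69). The part of fat or fibroblasts in the collagen falls of the lymph node was not tested. B cell markers moved with Col6a4 in the spleen, where 3 of 3 fell (median -1.04, means 11.3 on both GFP arrays and 9.77 to 10.3 with oncogenic Vav1), while in the lymph node none of the 3 passed (median -0.09, means 9.88 and 9.95 with GFP and 9.62 and 9.88 with oncogenic Vav1). Their part in the fall of Col6a4 was not tested.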

How the data were processed

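The authors deposited log2 values made with RMA in R 3.6.3 (per the submitters' processing notes), and these log2 values were used as deposited. Filters and genome build are not given in the sources used here. Of 29129 probe sets, 19572 carried a single gene symbol in GEO's platform annotation. The 1 with the highest mean was kept per gene, which left 19505 genes, of which 13393 above the 40th percentile of their array on at least 2 arrays were tested.

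All 10 arrays in 4 groups entered a single linear model with a variance trend (6 residual degrees of freedom), using R 4.3.3, limma 3.58.1 and statmod 1.5.0. The tissue comparisons and the interaction treated the animal as random (correlation within animals -0.11). On simulated data the fits recovered 74% of changes of 1 in the spleen and 59% in the lymph node. Between tissues they recovered 64% with GFP and 72% with oncogenic Vav1, and for the interaction 37%. Changes of this size were thus often missed, most of all by the interaction test. Tests are two-sided. Groups of 2 arrays limit the precision. The p-values rest on a spread between arrays of a group that is pooled over all 4 groups and both tissues. Those of a comparison within 1 tissue thus also use arrays of the other tissue. The construct comparisons did not model the animals that gave both tissues.

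Replicate numbers of the titles do not pair arrays: same-numbered arrays of different groups come from different animals. The collagen classes, partner lists, marker lists, rule for named genes and alternatives were chosen with earlier results of these data known. Full values went to up to 3 genes per class and comparison with the smallest p and to Col1a1, Col3a1, Col4a1, Col6a1 and Col6a4, and up to 4 per partner list. As alternatives, the filter, the normalization, the eBayes settings, weights, the choice of probe set, a fold of 1.5, blocks and an intronic control covariate were varied, and arrays were left out. Promoter sequences are from RefSeq (GRCm38), and all 42 symbols matched RefSeq.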

Additional observations from a re-analysis of the deposited data

Results flagged for a closer look

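The construct effect differed between lymph node and spleen by the interaction test for Col3a1 (-2.65) and for Col6a2 (-1.18). In the oncogenic Vav1 spleen, Col22a1 in replicate 4 (7.93) stood apart from the other 3 arrays (7.63 to 7.66), the sole such case among the 35 genes tested, where chance sets apart about 5% of groups.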

How the results depend on the processing

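Settings that left a count within 1.5 times its value are not listed. The 11 falls in the spleen, where 26.8% of all genes were called, became 5 with a fold of at least 1.5 as well (17.8% of all genes). They became 6 with the replicate block (20% of all genes) and 2 with the intronic control covariate (6.84%, median change -0.45 against -0.34). On leaving out each array 2 to 14 genes were called, the 14 being 13 falls and a rise of Col1a2. The 8 falls in the lymph node became 5 with array weights and 3 with the lymph node arrays alone, where 9.44% and 3.23% of all genes were called, against 18.7%. On leaving out an oncogenic Vav1 spleen array 6 or 7 were called, with 15.5% to 18% of all genes. With a single array left in a group the median collagen change was between -0.12 and -0.05. The 7 calls between tissues with GFP became 11 with the GFP arrays alone (fitted without a block), where 31.9% of all genes were called against 16.0%. On leaving out an oncogenic Vav1 spleen array 5 to 7 were called, with 12.8% to 16.9% of all genes. With a single array left in a group the median collagen difference was between -0.20 and -0.07. The 0 calls between tissues with oncogenic Vav1 stayed at 0 in every setting that left at least 2 arrays per group. Without oncogenic Vav1 lymph node replicate 1, which leaves a single array in that group, Col1a1 was -0.59. The 2 interaction calls became 1 with the stricter filter, which left 24 collagen genes tested, 4 with array weights and 4 with no animal block. Of all genes, 7.65%, 7.28% and 9.22% were then called, against 8.04%. On leaving out an oncogenic Vav1 spleen array 2 to 4 were called, with 5.26% to 7.82% of all genes. With a single array left in a group the median collagen difference was between 0.22 and 0.32, against 0.31. With the replicate block the other counts were 6 in the lymph node, 6 between tissues with GFP, 0 with oncogenic Vav1 and 2 for the interaction. Of all genes, 15.9%, 14%, 0% and 5.69% were called in these fits. Signs were compared only for the genes called in a comparison and for Col1a1, Col3a1, Col4a1, Col6a1 and Col6a4. Among these, reversals occurred in 3 cases, all of Col1a1. It was -0.41 in the spleen with the intronic control covariate, where it was not called. Between tissues with oncogenic Vav1 it was 0.34 without oncogenic Vav1 lymph node replicate 2 and 0.31 without both arrays of ONCO3. Col3a1 and Col6a4 passed in the lymph node under every alternative run, and Col6a2 under every alternative that tested it (the stricter filter left it out). Where 1 array was left out of a pair, the lone array was assumed to vary like the other groups. The causes of these differences were not tested.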

Other observations

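For the marker counts of this section, 17.1% of all genes tested were called higher and 9.77% lower in the spleen. In the lymph node the shares were 7.87% higher and 10.8% lower, and small counts near these shares say little about a cell type. Markers of other tissues that are rich in collagen were sparse. Of 5 skeletal muscle markers, 3 stayed near background in every group (Ckm, Myh4 and Mylpf) and neither of the 2 tested passed in the spleen (median -0.26) or lymph node (median -0.10). Of 5 cartilage and bone markers, Ibsp and Sp7 stayed near background in every group, and none of the 3 tested passed in the spleen (median -0.35) or lymph node (median 0.11). Of 4 mesothelium markers, 2 were tested, and both fell in the spleen (median -0.55) while 1 rose in the lymph node (median 0.42). Smooth muscle and pericyte markers rose in 1 of 6 cases in the spleen (median -0.11) and fell in 2 in the lymph node (median -0.58). Endothelial markers fell in 1 of 8 cases in the spleen (median 0.02) and 4 in the lymph node (median -0.74). Reticular stroma markers rose in 1 and fell in 2 of 7 cases in each tissue (medians 0.05 in the spleen and -0.77 in the lymph node).

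Among blood cell markers, T cell genes rose in 1 of 4 cases in the spleen (median 0.67) and fell in 3 of 4 in the lymph node (median -1.21). Their mean was 10.06 and 10.09 in the GFP lymph node, and 9.45 and 8.14 on oncogenic Vav1 lymph node replicates 1 and 2. These replicates also differed in the means of myeloid (10.92 and 9.82) and erythroid markers (8.85 and 11.44). Replicate 2 is the array with the lowest Col1a1 and Col1a2, and the part of its make-up in those values was not tested. Myeloid genes rose in 3 of 4 cases in the spleen (median 1.17) and 1 of 4 in the lymph node (median 0.21). Both erythroid genes tested rose in the lymph node (median 4.68) and neither passed in the spleen (median 1.27). Of the platelet markers none of 4 passed in the spleen (median 0.08), and the lymph node median was 1.27. Fat cell markers fell in 3 of 7 cases in the spleen (median -0.79).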
